A study of Danio rerio with 3 samples.

Results

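The genes for cytosolic translation initiation and elongation factors were followed through single cells of the adult zebrafish heart before and after loss of its ventricular muscle. Members were taken by symbol: every gene whose name begins with eif and a digit, or with eef1 or eef2, leaving out the eIF4E-binding proteins, the eIF2-alpha kinases, the eEF1A methyltransferases and the eEF2 kinase. The rule found 74 of the 26320 genes in the table, and it used no measured value. At least 1 UMI (a count of captured RNA molecules) was found for 66 of them and at least 20 UMIs for 55. The heart cells came from 3 droplet libraries, each from 6 hearts of fish aged 5 to 12 months, labelled strain AB, that were digested in 2 sets of 3 hearts and then pooled. Day 0 was taken before any drug. Days 3 and 7 followed 48 hours in 5 mM metronidazole with 0.1% DMSO, and the labels describe an ablation line in which the vmhc promoter drives an mCherry-nitroreductase fusion in ventricular muscle, without naming the line used for each library. There was 1 library per day, so library, drug and injury cannot be told apart, no test was possible, and every 95% interval covers counting error only.

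Translation starts when eIF2 carries the initiator tRNA to the small ribosomal subunit with eIF1, eIF1A, eIF3 and eIF5. The eIF4 factors bind the mRNA cap through eIF4E, unwind the leader with the helicase eIF4A, and join both through the scaffold eIF4G. eEF1A then brings each aminoacyl tRNA to the ribosome, eEF1B recharges eEF1A with GTP, eEF2 moves the ribosome along, and eIF5A, which carries the modified amino acid hypusine, helps it through difficult peptide bonds. In vertebrate cells mTORC1 controls how strongly many of these mRNAs are translated, which mRNA counts do not show. The series title places the study in amino acid and mTOR signalling during heart regeneration.

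The libraries held 272 cells at day 0, 114 at day 3 and 368 at day 7, with 857410, 493660 and 1355246 UMIs. Median UMIs per cell were 2677, 3260.5 and 3124.5, and 1 cell barcode was shared between libraries. Cells were grouped by the 7 clusters the authors deposited, which carry numbers and no names. By marker genes, cluster 1 was mural-like, cluster 4 fibroblast-like, cluster 5 cardiomyocyte-like and clusters 2 and 6 endothelial-like. Clusters 0 and 3 took no name from the highest marker score, because the erythroid list scored highest in cluster 0 and the B cell list, at 3.14 CPM (UMIs scaled to a total of 1000000), in cluster 3. They were put with clusters 2 and 6 after their marker sums were seen: their summed endothelial markers reached 4249.8 and 4215 CPM, against 6627 and 6664 in clusters 2 and 6 and 421 to 945 in the other clusters. Cluster 6 also held 7965 CPM of epicardial markers, against 1664 to 3668 in the others. Day 3 held clusters 0, 3 and 6 almost alone, so changes over time in mural and cardiomyocyte cells run from day 0 to day 7. The clusters were made from all genes, the members included, so differences between clusters are descriptions.

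Translation factors held 1.95, 1.99 and 2.21% of UMIs at days 0, 3 and 7, together 56485 of 2706316 UMIs. Of these, eEF1A took 33.8%, eEF1B 25.3%, eIF3 19.6%, eIF5A 8.64%, the eIF1, eIF1A, eIF5 and eIF5B group 4.83%, eEF2 3.15% and eIF2 2.23%, with each remaining complex under 1%. These are shares of captured UMIs and were not corrected for transcript length. The 5 members with most UMIs, eef1a1l1, eef1b2, eif3f, eif5a and eef1g, held 67.1%. Over the 12 cluster-by-day groups of at least 15 cells, the median cell gave between 13281 CPM to these genes, in day 7 cardiomyocyte-like cells, and 19504 CPM, in day 3 cells of cluster 6. The same range for the 80 cytosolic ribosomal protein genes was 223993 to 404623 CPM.

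**Figure D1:**
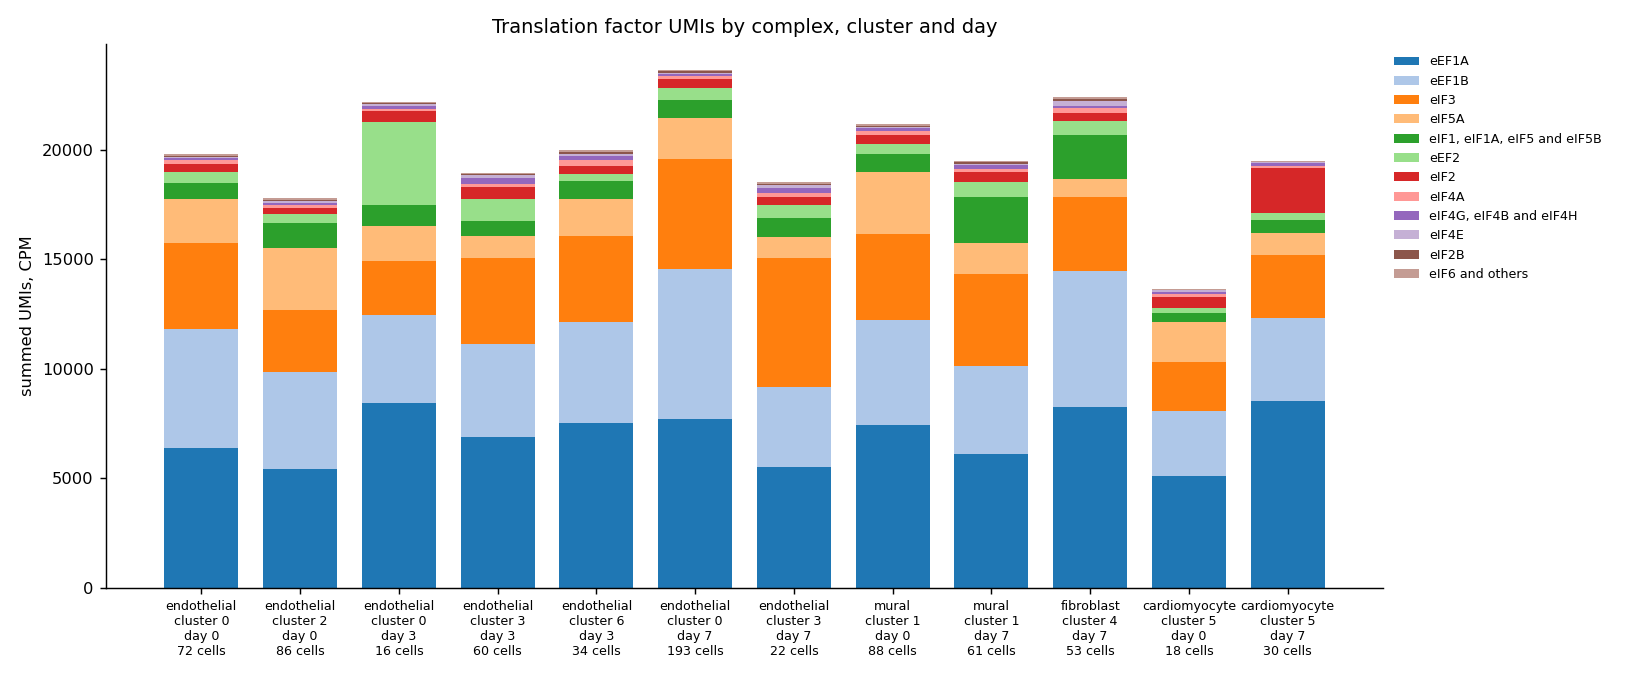
Summed translation factor levels (CPM, vertical axis) for the 12 cluster-by-day groups of at least 15 cells, stacked by factor complex. eEF1A, eEF1B and eIF3 fill most of every bar, day 0 cardiomyocyte-like cells stand lowest at 13634 CPM, and the wide eEF2 band of cluster 0 at day 3 and eIF2 band of cluster 5 at day 7 each rest mostly on 1 cell.

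Single cells with very many UMIs of 1 gene set several of the summed levels, and this bears on every ratio below. A pair of a member and a cell was counted where the cell held at least 25 UMIs of the gene and over 5 times the gene's 95th percentile over all cells. There were 58 such pairs, in 20 members, and they held 14.4% of all member UMIs: 21 pairs and 12.7% at day 0, 9 pairs and 8.91% at day 3, and 28 pairs and 17.2% at day 7. One mural-like day 7 cell held 279 of the 427 UMIs of eif1axa, a gene for eIF1A. One day 7 cell of cluster 2 held 273 of the 481 UMIs of eif3ba, and one day 7 cell of cluster 0 held 218 of the 545 UMIs of eif3ha, both eIF3 subunits. One day 7 cardiomyocyte-like cell held 178 of the 445 UMIs of eif2s2, the beta subunit of eIF2, which was 8.69% of all UMIs in that cell. This was not particular to the members: among genes with 300 to 1000 UMIs, 6 of 11 members and 186 of 483 genes in all (38.5%) had over 25% of their UMIs in 1 cell. Each level was therefore also computed without the richest cell of the gene in each group, and with UMIs per cell capped at that 95th percentile, a choice made after the data were seen. The cap was 1 UMI for low members such as eif3jb, eif4h and eif4bb, so their capped level counts cells with a UMI. Totals were left uncapped, so deep cells add more to the total than to a capped count. The medians per cell and the shares of cells with a UMI, after thinning each cell to 2000 UMIs, depend little on cells rich in 1 gene.

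**Figure D2:**
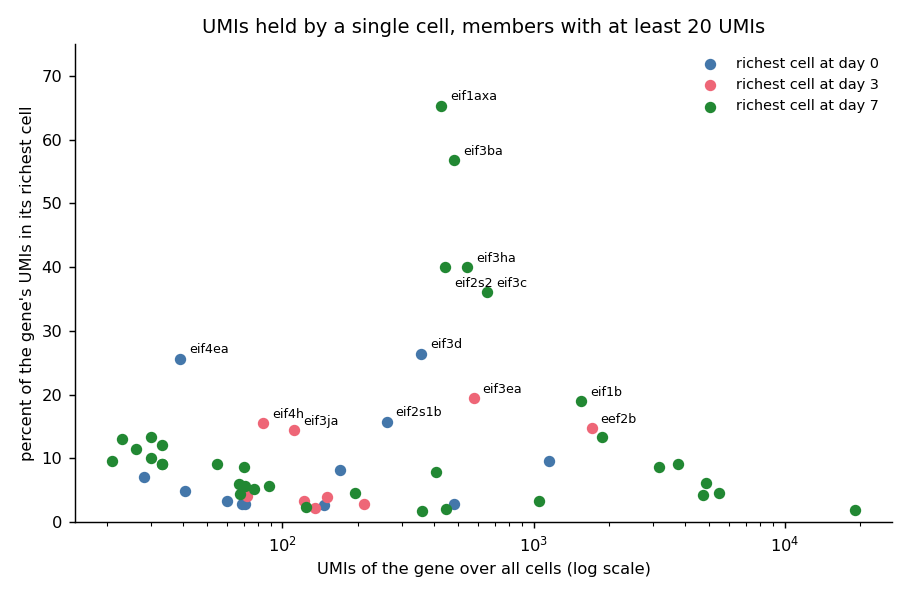
For each of the 55 members with at least 20 UMIs, the percent of its UMIs found in its richest cell (vertical axis) against its UMIs over all 754 cells (horizontal axis, log scale), coloured by the day of that cell. Members of 300 to 1000 UMIs hold the highest shares, with eif1axa at 65.3% and eif3ba at 56.8%, while eef1a1l1 stands at 1.83%.

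eEF1A UMIs were all counted at 1 locus, eef1a1l1. It had 19092 UMIs in 753 of 754 cells. The genes eef1a1a, eef1a1b and eef1a2, the last a muscle and nerve isoform in mammals, had 0 UMIs in 2706316. Over all cells pooled, this allows up to 1.11 CPM each. In cardiomyocyte-like cells alone the limit is higher, since 3 UMIs would be 63.4 CPM at day 0 and 29.2 CPM at day 7. How any reads shared between the eEF1A paralogs were assigned was not tested. The eef1a1l1 level was 6307 CPM before injury (6140 to 6478). It was 7426 CPM by day 3 (7188 to 7671) and 7392 CPM by day 7 (7248 to 7538). The medians per cell were 5452, 6652 and 5206 CPM, so the higher summed day 7 level did not appear in the median cell. Among groups the median ran from 4226 CPM in day 0 cardiomyocyte-like cells to 7103 in day 3 cells of cluster 6. Day 0 cluster 0 at 6034, day 3 cluster 3 at 6195.5 and day 7 cluster 0 at 5759.9 lay well within one another's quartiles.

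eEF1B, the exchange factor of eEF1A, has a catalytic alpha subunit (eef1b2), a gamma subunit that anchors the complex (eef1g) and a second catalytic subunit, delta, with the paralogs eef1da and eef1db. eef1b2 stood at 1964, 2072 and 2045 CPM at days 0, 3 and 7 and eef1g at 1261, 1066 and 1584 CPM. Of the 684 fibroblast-like UMIs of eef1g, 50.3% came from 1 cell, and its median fibroblast-like cell held 900.5 CPM. eef1g was lowest in cardiomyocyte-like cells, at 528 CPM on day 0 and 554 on day 7, against 1331 and 1482 in endothelial-like cells. The aminoacyl synthetase scaffold gene eef1e1, which the rule also takes in, had 6 UMIs.

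The delta paralog eef1db differed between cell classes. It had a UMI in 60.8% of thinned endothelial-like cells at day 0 (117 of 166 before thinning), 43.2% of mural-like and 27.8% of cardiomyocyte-like cells. At day 7 the shares were 67.9% in endothelial-like, 49.2% in mural-like, 36.7% in cardiomyocyte-like and 30.2% in fibroblast-like cells. In summed UMIs eef1db was 634 CPM in endothelial-like and 273 CPM in mural-like cells at day 0, a 2.33-fold difference (1.82 to 3.00). At day 7 it was 1148 CPM in endothelial-like cells, 514 CPM in mural-like cells (2.23-fold lower, 1.83 to 2.75) and 191 CPM in fibroblast-like cells (6.00-fold lower, 4.37 to 8.46). These differences stayed past 1.5-fold without the richest cell and after the cap. That of day 7 cardiomyocyte-like cells, at 651 CPM (1.76-fold lower, 1.38 to 2.29), was 1.37-fold after the cap. Within endothelial-like cells the order of days was the same by both measures. Days 0, 3 and 7 stood at 634, 595 and 1148 CPM summed, and at 558, 399 and 775 CPM capped. Between day 3 endothelial-like and day 7 mural-like cells the order depended on the measure. The mural-like cells stood at 514 CPM summed, under the endothelial-like cells, and at 481 CPM capped, above them. eef1da differed less, with day 7 medians of 839 CPM per endothelial-like cell, 800.3 per mural-like cell and 929 per fibroblast-like cell. After the cap, eef1db made up 40.9% of delta UMIs in endothelial-like cells (37.2 to 44.7) and 24.6% in mural-like cells (20.03 to 29.5) at day 0. At day 7 it made up 45.5% in endothelial-like (42.9 to 48.1), 35.9% in mural-like (30.3 to 41.8), 34.9% in cardiomyocyte-like (27.7 to 42.7) and 15.4% in fibroblast-like cells (11.3 to 20.4). The genes are close paralogs, and how counting divided reads they share is not given in the sources used here.

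**Figure D3:**
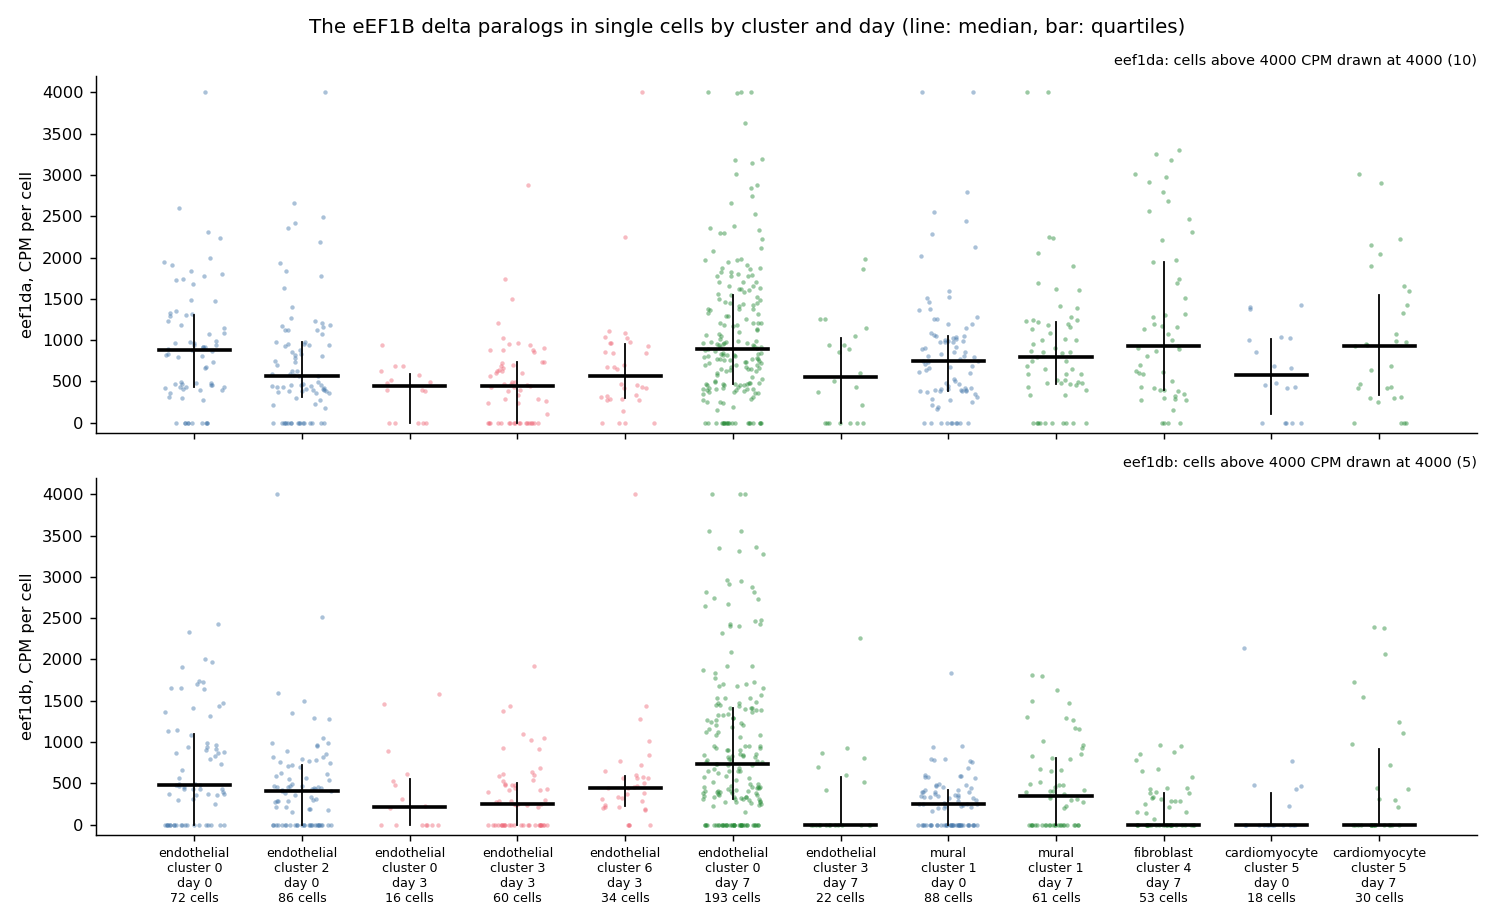
Levels of eef1da (top) and eef1db (bottom) in CPM in every cell of the 12 groups, coloured by day, with the median as a thick line and the quartiles as a thin bar. The eef1db median is 0 in fibroblast-like cells, cardiomyocyte-like cells and day 7 cluster 3, and 736.7 CPM in day 7 cluster 0, while eef1da medians lie between 441 and 935 CPM in all groups and are lowest in clusters 0 and 3 at day 3.

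eEF2 UMIs were counted almost wholly at eef2b, with 1703 of 1777. eef2l2 had 70 UMIs, eef2a.1 had 4 and eef2a.2 none. The eef2b level was 428 CPM before injury (385 to 474), 1248 CPM by day 3 (1151 to 1350.4) and 531 CPM by day 7 (493 to 572), and 1 day 3 cell held 251 of its 616 UMIs there. The median cell still stood at 314.5, 474 and 361 CPM. The higher day 3 medians lay in cluster 3 and in the 16 cells of cluster 0, at 698 and 582 CPM. Cluster 6 stood at 280.1 CPM, and day 0 clusters 0 and 2 at 0 and 362 CPM. Medians this low rest on few UMIs per cell. In summed UMIs, day 0 clusters 0 and 2 were alike, at 456 and 432 CPM (1.06-fold, 0.795 to 1.40). Within day 3, cluster 3 was 2.87-fold above cluster 6 (2.15 to 3.88). eef2l2 was the one member that stood over 1.5-fold higher in mural-like than in endothelial-like cells on both days, with and without the correction for rich cells. It was 49.9 against 21.6 CPM before injury, with an interval that reached below 1 (2.31-fold, 0.991 to 5.56), and 99.1 against 10.8 CPM at day 7 (9.15-fold, 4.02 to 22.7), from 10 and 11 mural-like cells with a UMI. Day 7 cardiomyocyte-like cells held 87.5 CPM of it, from 9 UMIs in 7 cells.

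eif5a, the main eIF5A gene, was lower on both later days. Its level was 2483 CPM before injury (2379 to 2591), 1286 CPM by day 3 (1188 to 1390.4) and 1438 CPM by day 7 (1375 to 1503). Medians per cell were 1856, 977 and 963 CPM. Day 0 was the highest in every class that could be compared: the median endothelial-like cell held 1976, 979.7 and 1079.6 CPM at days 0, 3 and 7, the median mural-like cell 1645 and 1197 CPM at days 0 and 7, and the median cardiomyocyte-like cell 1707 and 840.4 CPM. Clusters differed within a day. At day 3 the median was 859 CPM in cluster 3 and 760.5 in cluster 0 but 1689 in cluster 6, nearer the 1982 and 2068 of day 0 clusters 0 and 2. In summed UMIs day 3 cluster 6 was still under those day 0 clusters, at 1653 against 2464 CPM (1.49-fold lower, 1.31 to 1.70). Its log2 ratio after the cap was -0.49. Fibroblast-like cells, present at day 7, had the lowest median of all, 640.2 CPM. Since each day was 1 library, and the day 0 fish had no metronidazole, the cause of the day difference was not tested. The paralog eif5a2 stood at 75.8, 62.8 and 54.6 CPM, and after the cap it made up 2.40% of eIF5A UMIs in day 0 endothelial-like cells and 6.86% in fibroblast-like cells.

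**Figure D4:**
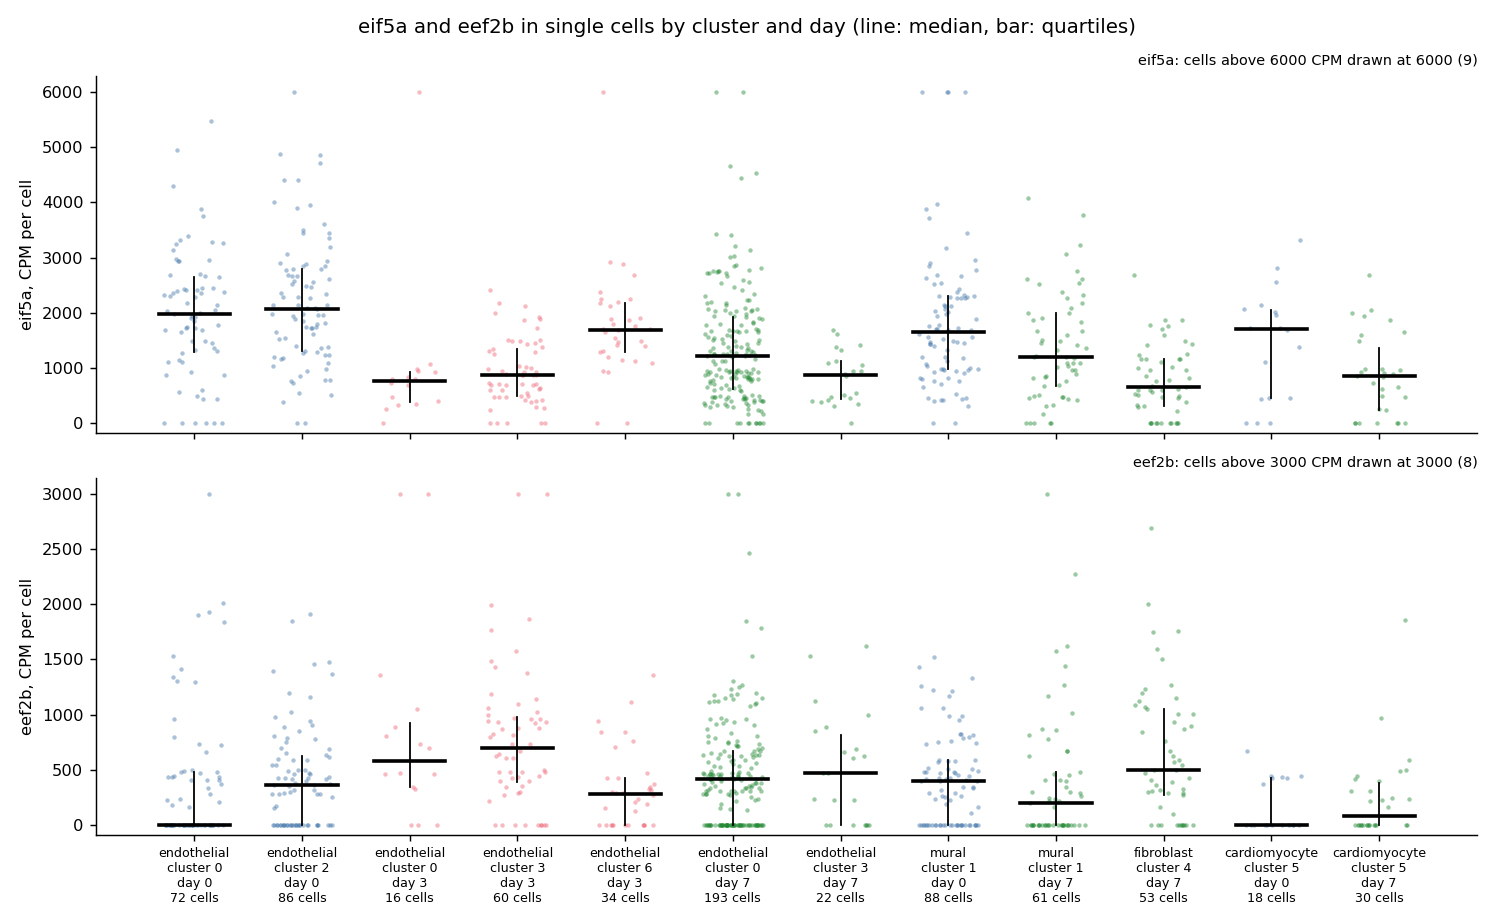
Levels of eif5a (top) and eef2b (bottom) in CPM in every cell of the 12 groups, coloured by day, with the median as a thick line and the quartiles as a thin bar. The eif5a medians lie between 1645 and 2068 CPM in the day 0 groups and between 640.2 and 1209.6 CPM in the day 3 and day 7 groups other than cluster 6, which stands at 1689; eef2b is highest in cluster 3 at day 3.

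eIF3, the largest initiation factor, had 18 genes, 16 with a UMI. Its UMIs were led by eif3f (4868), eif3g (1156) and eif3m (1046), with eif3bb and EIF3J (3 of 3) at 0. eif3f was 1397, 1503 and 2160.5 CPM at days 0, 3 and 7, with median cells at 1193, 930.2 and 1399.8 CPM, so the median cell was lowest at day 3. eif3g had a UMI in 34.6, 46.5 and 48.9% of thinned cells at days 0, 3 and 7. In mural-like cells eif3g went from 249 CPM (33.0% of thinned cells) at day 0 to 580.2 CPM (55.7%) at day 7, a 2.33-fold difference (1.73 to 3.14). In cluster 0 its share of thinned cells was 43.1% at day 0 and 57.5% at day 7. The summed day 0 level of cluster 0, 948 CPM, was nonetheless the higher, because 1 cell held 60.0% of its UMIs there. eif3m was 314, 401 and 427 CPM. Summed over the complex, the median cell held 1634 CPM in day 0 cardiomyocyte-like cells, 2098 in fibroblast-like cells and 3715 in day 7 cells of cluster 0.

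Members of the ternary complex and of start-site selection were captured less often. For eIF2, the gamma subunit gene eif2s3 stood at 146, 231 and 179 CPM at days 0, 3 and 7. The beta subunit gene eif2s2 stood at 86.3, 109 and 234 CPM, and at 95.2 CPM at day 7 after the cap. The alpha subunit genes eif2s1b and eif2s1a had 260 and 72 UMIs. The 5 genes of eIF2B, the exchange factor of eIF2, had 160 UMIs together, led by eif2b2 with 77, eif2b1 with 30 and eif2b4 with 26. Of the start-site factors, eif1b (listed under an eIF1 symbol) stood at 550.5, 375 and 658 CPM, but 83.1% of its fibroblast-like UMIs came from 1 cell and its median cell held 334, 334 and 241 CPM. The eIF1A gene eif1axb stood at 154, 162 and 145 CPM, and eif5, which triggers GTP hydrolysis by eIF2, at 64.2, 81.0 and 86.3 CPM.

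Cap-binding and helicase factors were low throughout. eIF4A had 423 UMIs, led by eif4a1b (194), eif4a3 (146), known as a helicase of the exon junction complex, and eif4a2 (60). The eIF4G, eIF4B and eIF4H group had 359, led by eif4bb (122), eif4h (84) and eif4g1a (55), and eIF4E had 255, led by eif4e2rs1 (71), eif4eb (69) and eif4ea (39). The eIF4G, eIF4B and eIF4H group stood at 98.0, 217 and 124 CPM at days 0, 3 and 7, and its highest level among the 12 groups was in cluster 3 at day 3 (300.2 CPM, 194 after the cap). In the last group, eif6, whose product keeps large ribosomal subunits from joining, had 67 UMIs, eif1ad 71 and eif2a 33. Just above the limit of 20 UMIs, the last 5 members had 21 to 30 UMIs.

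The question of what happens to these genes in the cells that line the heart was taken first from day 3. In each comparison a log2 ratio was computed with 10 CPM added to both sides, for genes with at least 20 UMIs in both groups together. In endothelial-like cells at day 3 against day 0, 42 members had enough UMIs. Of these, 31 were higher and 11 lower, while 47.2% of all genes were higher. The members' median log2 ratio was 0.28, against -0.04 over all 2565 genes tested. Past 1.5-fold, 13 members were higher and 6 lower, against 23.5% higher and 26.1% lower of all genes. By all 3 measures (all UMIs, without the richest cell, capped), 6 of the 42 members were past 1.5-fold higher and 3 lower, against 12.4% and 19.5% of all genes. By all 3 measures, the share of members higher was close to that of all genes.

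The 6 higher members were eif3jb, eif4h, eif4bb, eif4g1a, eif6 and eif4a2, each with a cap of 1 UMI. eif3jb, an eIF3 subunit that binds the decoding site of the small subunit, was 75.6 against 19.6 CPM (3.85-fold, 1.88 to 8.68). eif4h and eif4bb, cofactors of the helicase, were 71.5 against 25.5 CPM (2.80-fold, 1.45 to 5.77) and 67.5 against 27.5 CPM (2.45-fold, 1.28 to 4.96). The scaffold gene eif4g1a was 34.8 against 9.82 CPM (3.54-fold, 1.25 to 12.3), eif6 was 34.8 against 11.8 CPM (2.95-fold, 1.11 to 9.14), and the helicase gene eif4a2 was 34.8 against 17.7 CPM with an interval that reached below 1 (1.97-fold, 0.829 to 5.01). These are small counts: eif4bb had a UMI in 15.04% of thinned day 3 cells and 4.82% of day 0 cells, and eif3jb in 13.3% and 3.61%. eif4h was lower, not higher, in day 3 cluster 0 alone (log2 ratio -0.76), and eif4g1a in cluster 6 alone (-0.36).

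The 3 lower members were eif5a, eef1da and eif1ad. eif5a was 1292 against 2411 CPM (1.87-fold lower, 1.69 to 2.06) and eef1da 595 against 1573 CPM (2.64-fold lower, 2.31 to 3.03). Single day 0 cells weighed in eef1da, whose median cell stood at 466 against 687 CPM. eif1ad was 16.4 against 39.3 CPM (2.40-fold lower, 1.01 to 6.30). The summed ratio of eef2b was 1.42 on the log2 scale and 0.29 after the cap, and that of eif3ea 1.59 and 0.45. eif3c, with a log2 ratio of -1.62, stood at 0.21 without its richest cells.

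The clusters of day 3 were also set apart, a choice made after the data were seen. Clusters 3 and 6 of day 3 against clusters 0 and 2 of day 0 gave 27 of 39 members higher, against 48.9% of all genes. Past 1.5-fold, 13 members were higher and 5 lower, against 25.2% and 27.4% of all genes. Cluster 3 alone had 13 of 37 higher and 8 lower past 1.5-fold, against 23.8% and 32.5%, and cluster 6 alone 6 of 37 higher and 5 lower, against 22.0% and 37.5%. The members' medians were 0.31 for cluster 3 and 0.07 for cluster 6, against -0.09 and -0.22 over all genes. Directly compared within day 3, cluster 3 had 10 of 32 members higher than cluster 6 and 7 lower past 1.5-fold, against 35.1% and 26.2%. eif5a was 1.88-fold lower in cluster 3 (1.56 to 2.27), and eif4h was 131 against 38.3 CPM (3.41-fold, 1.45 to 9.28). Of the 27 eif4h UMIs in cluster 3, 13 came from 1 cell, and after the cap eif4h was 48.4 against 21.9 CPM.

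Summed cell type markers moved with these days, while stray RNA was not measured. In endothelial-like cells at days 0, 3 and 7, summed cardiomyocyte markers were 45707, 8365 and 21782 CPM, erythroid markers 3389, 24.5 and 747 CPM, fibroblast markers 864, 1478 and 2279.96 CPM, and endothelial markers 7547, 4661 and 3514 CPM. Their part in the member ratios was not tested. With mitochondrial, globin and cardiomyocyte marker genes left out of the total, the median log2 ratio of the members was 0.20 against -0.11 over all genes at day 3, and 0.09 against -0.19 at day 7.

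**Figure D5:**
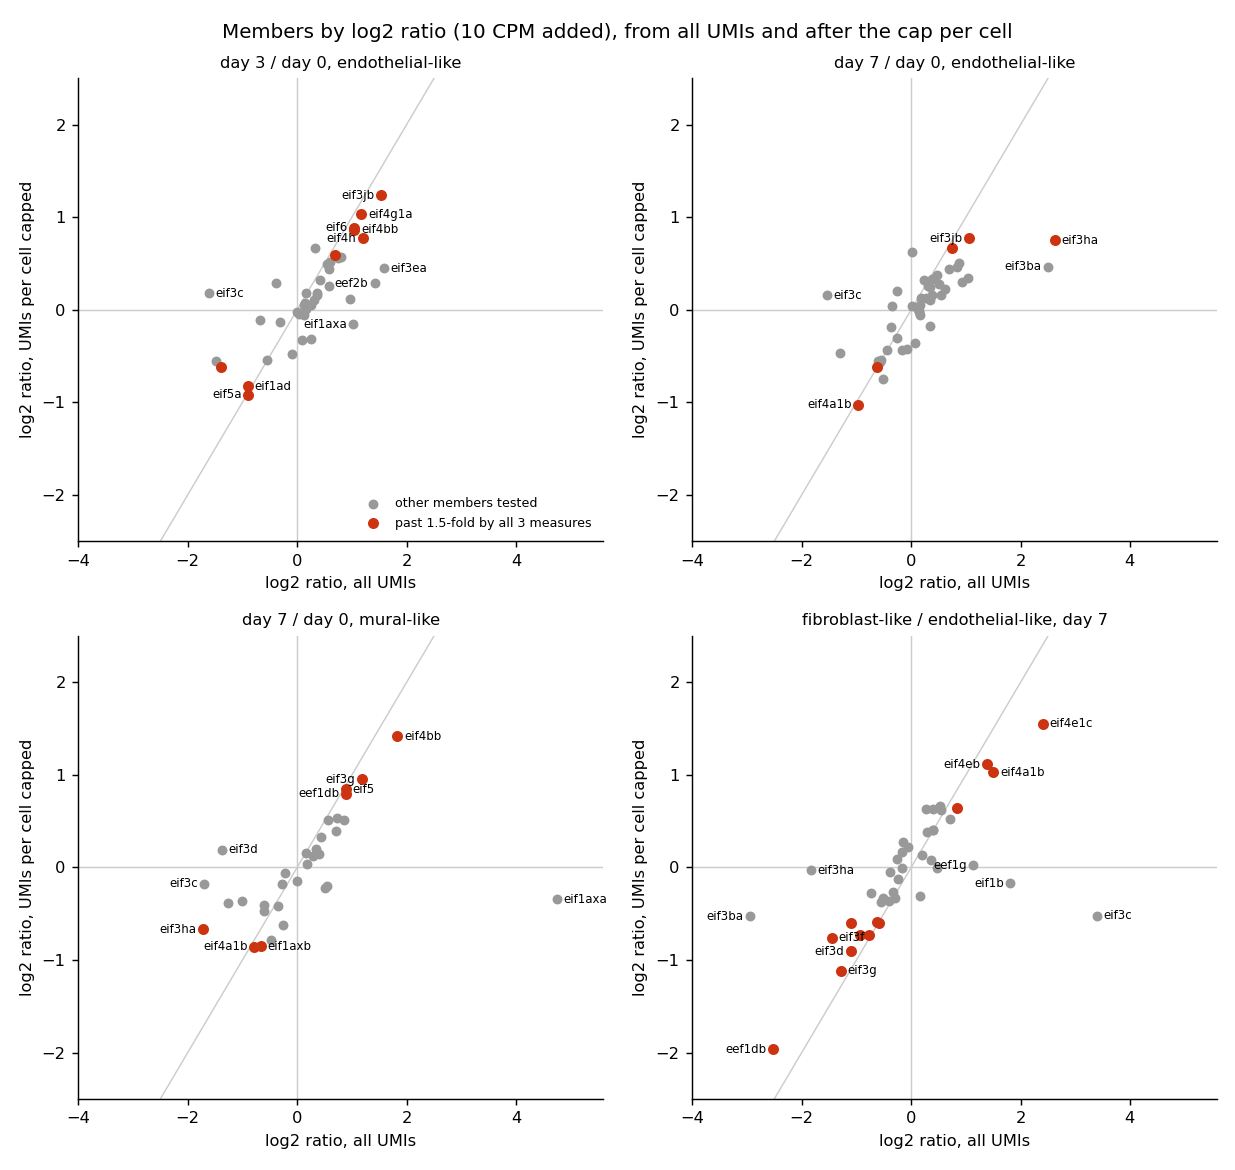
Log2 ratio of each member from all UMIs (horizontal axis) against the ratio with UMIs per cell capped (vertical axis) in 4 comparisons, with 10 CPM added to both groups. Red points are past 1.5-fold by all 3 measures; labels are given to red points beyond 0.75 on the capped scale and to members whose 2 ratios differ by over 1. eif1axa in mural-like cells and eif3c in fibroblast-like cells lie far right of the line yet at or below 0 after the cap.

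At day 7 against the same day 0 cells, 45 members were tested in endothelial-like cells. Of these, 30 were higher and 15 lower, while 41.7% of all genes were higher. The members' median ratio was 0.16 against -0.13 over all genes (log2). Past 1.5-fold, 10 were higher and 5 lower, against 16.5% and 25.9% of the 3012 genes. By all 3 measures, 3 of the 45 members were past 1.5-fold higher and 2 lower, against 5.81% and 19.4% of all genes, so the share higher was near the background. The 3 higher were eif3ha, at 367 against 51.1 CPM, eif3jb, at 51.7 against 19.6 CPM (2.63-fold, 1.30 to 5.88), and eif3ea, at 227 against 132 CPM (1.73-fold, 1.30 to 2.32). The eif3ha ratio of 2.63 on the log2 scale was 1.00 without the richest cells, and its share of thinned cells was 16.5% against 7.23%. All 3 are eIF3 subunit genes. Within cluster 0, eif3ea was 240 against 195 CPM, with an interval that reached below 1 (1.23-fold, 0.863 to 1.81). At day 0 it was 2.39-fold higher in cluster 0 than in cluster 2 (1.39 to 4.21). The part of cluster mix in its ratio was not tested. Within cluster 0, eif3ha was 10.7-fold higher (5.34 to 24.9) and eif3jb 9.89-fold higher (1.66 to 402), the latter from 1 UMI at day 0. Of the 15 eIF3 genes tested, 13 were higher, against 41.7% of all genes. From all UMIs, 6 of the 15 were past 1.5-fold, but by all 3 measures only the 3 named above were past it higher. eif3ba, past 1.5-fold higher from all UMIs, stood at 0.48 without the richest cells and 0.47 after the cap (log2). eif3c was past 1.5-fold lower from all UMIs, at -1.54, and stood at 0.31 without the richest cells. The summed level of the complex was 1.66-fold higher (1.57 to 1.76) and 1.29-fold after the cap. The 2 lower members were the helicase gene eif4a1b, at 37.3 against 82.5 CPM (2.21-fold lower, 1.36 to 3.64), and the cap-binding paralog eif4e2rs1, at 19.3 against 35.3 CPM (1.84-fold lower, 0.884 to 3.85). eif5a was 1681 against 2411 CPM (1.43-fold lower, 1.33 to 1.55). Within cluster 0 it was 1844 against 1984 CPM, with an interval that included 1 (1.08-fold lower, 0.958 to 1.21). After the cap its log2 ratio in cluster 0 was -0.66. At day 0, eif5a was 1.41-fold lower in cluster 0 than in cluster 2 (1.25 to 1.60). Within cluster 0, which both days hold, 8 of 37 members were higher and 5 lower past 1.5-fold, against 21.1% and 23.5%, while day 0 cluster 0 against cluster 2 gave 8 of 28 higher and 2 lower, against 14.2% and 24.4%. From day 0 to day 7 within cluster 0, the eIF3 genes eif3s6ip, eif3g, eif3k, eif3i and eif3ja were lower from all UMIs. Of these, eif3s6ip and eif3k stayed lower without the richest cells. Day 3 and day 7 share the day 0 cells, so the ratios at the 2 days are not independent.

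In mural-like cells at day 7 against day 0, 32 members were tested, 17 higher and 15 lower, while 48.3% of all genes were higher. The members' median was 0.17 against -0.02 over all genes. Past 1.5-fold, 8 were higher and 9 lower, against 24.8% and 27.1% of the 1475 genes. The 3 measures together gave 4 members higher and 3 lower, against 10.8% and 18.7% of all genes. The genes eif4bb (108 against 23.3 CPM, 4.66-fold, 1.94 to 12.9), eif3g, eef1db (514 against 273 CPM, 1.89-fold, 1.40 to 2.54) and eif5 (113 against 56.5 CPM, 2.00-fold, 1.03 to 3.97) were higher. eif3ha (113 against 396 CPM, 3.49-fold lower, 2.24 to 5.67), eif1axb and eif4a1b were lower, the last 2 with intervals that reached below 1. eif1axb was 99.1 against 163 CPM (1.64-fold lower, 0.968 to 2.89) and eif4a1b 51.9 against 96.4 CPM (1.86-fold lower, 0.901 to 4.12). The largest ratio, 4.75 for eif1axa, rested on the 1 cell named above and was -0.84 without the richest cells. eif5a was 1377 against 2765 CPM (2.01-fold lower, 1.76 to 2.30), with a log2 ratio of -0.37 after the cap.

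In cardiomyocyte-like cells, with 18 cells at day 0 and 30 at day 7, 15 members were tested. Of these, 10 were higher and 5 lower, with a median of 0.28 against 0.16 over all genes, and 59.6% of all genes were higher. The share of members higher, 66.7%, was 80.0% with ribosomal protein genes left out of the total and 60.0% with mitochondrial, globin and cardiomyocyte marker genes left out. Past 1.5-fold, 4 were higher and 2 lower, against 33.2% and 21.5% of the 572 genes. By all 3 measures 2 members were higher and 1 lower, against 19.2% and 14.0% of all genes. Both delta paralogs were higher, eef1db at 651 against 254 CPM (2.57-fold, 1.38 to 5.21) and eef1da at 1079 against 655 CPM (1.65-fold, 1.097 to 2.54). eif5a was lower, at 943 against 1459 CPM (1.55-fold lower, 1.12 to 2.13). The eif2s2 ratio of 3.06 was -0.65 without the richest cells.

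Cardiomyocyte-like cells were set against endothelial-like cells on each day. At day 0, 25 of 31 members tested were lower there than in endothelial-like cells, while 28.3% of all genes were higher. The members' median was -0.72 against -0.88 over all genes. Past 1.5-fold, 3 were higher and 18 lower, against 19.4% and 61.0% of the 1679 genes. At day 7, 30 of 39 members were lower, while 33.8% of all genes were higher. The members' median was -0.52 against -0.57, and 3 members were higher and 18 lower past 1.5-fold, against 21.9% and 49.6% of the 2221 genes. On all 3 measures 2 members were higher and 11 lower at day 0, against 14.4% and 50.6% of all genes. At day 7, 0 were higher and 9 lower, against 15.9% and 35.7%. These lower counts took in members with 0 or 1 UMI in cardiomyocyte-like cells, whose differences rest on very little RNA. They were eif5, eif1ad, eif3ha, eif3ba and eif3d at day 0, and eif1ad, eif2s1a, eif4a3, eif5 and eif2b2 at day 7. Cardiomyocyte markers took 157775 CPM of these cells at day 0 and 123957 at day 7, and their part in the member ratios was not tested. With mitochondrial, globin and cardiomyocyte marker genes left out of the total, the share of members higher went from 19.4% to 35.5% at day 0 and from 23.1% to 25.6% at day 7. eef1g, eef2b and eif3g were lower by all 3 measures on both days. eef2b was 190.2 against 461 CPM at day 0 (2.43-fold lower, 1.26 to 5.37) and 233 against 522 CPM at day 7 (2.24-fold lower, 1.48 to 3.53). eif5 had 0 UMIs in day 0 cardiomyocyte-like cells, where 3 UMIs would be 63.4 CPM, and 74.6 CPM in endothelial-like cells, and the interval of that ratio included 1. It had 1 UMI in day 7 cardiomyocyte-like cells against 83.0 CPM (8.54-fold lower, 1.48 to 342). eif3ha was at 1 UMI in day 0 cardiomyocyte-like cells against 51.1 CPM, and eif1ad at 0 UMIs on both days against 39.3 and 26.5 CPM. These lie under the level of 3 UMIs, 63.4 CPM at day 0 and 29.2 CPM at day 7, so no difference was detectable at this depth.

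Mural-like cells lay closer to endothelial-like cells. At day 0, 38 members were tested, 19 higher and 19 lower, while 42.6% of all genes were higher. The members' median was 0.01 against -0.17 over all genes. Past 1.5-fold, 4 members were higher and 4 lower, against 21.7% and 35.2% of the 2205 genes. At day 7, 18 of 40 members were higher, against 44.9% of all genes, with a median of -0.05 against -0.13. Past 1.5-fold, 3 members were higher and 7 lower, against 24.7% and 35.7% of the 2425 genes. Members past 1.5-fold on all 3 measures were 3 higher and 1 lower at day 0, against 15.6% and 27.4% of all genes, and 2 were higher and 2 lower at day 7, against 17.4% and 24.0%. Besides eef1db and eef2l2, eif3ha and eif2s1b were higher in mural-like cells at day 0 by all 3 measures. eif3ha was 396 against 51.1 CPM, 2.73 on the log2 scale and 3.19-fold after the cap, and 31.8% of thinned mural-like cells had a UMI of it against 7.23% of endothelial-like cells. At day 7 its capped ratio was 0.09. Of the eif2s1b UMIs in day 0 mural-like cells, 62.1% came from 1 cell. At day 7, eif4bb was higher (108 against 42.1 CPM) and eif3ea lower (127 against 227 CPM) by all 3 measures.

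Fibroblast-like cells were compared with endothelial-like cells at day 7. Of 43 members tested, 19 were higher and 24 lower, with a median of -0.16 against -0.01 over all genes, and 8 were higher and 12 lower past 1.5-fold, against 30.1% and 30.7% of the 2498 genes. Both shares of members lay under those of all genes. By all 3 measures 4 were higher and 9 lower, against 21.3% and 19.2% of all genes. The 3 eIF4E genes and 2 eIF4A genes tested were higher, counts too small to set against the 49.6% of all genes that were higher. Among the 4 higher, eif4e1c, a cap-binding paralog known from fish, was 81.3 against 7.22 CPM (11.3-fold, 4.24 to 34.9) from 7 of 53 cells against 4 of 224. eif4eb was 57.4 against 15.6 CPM (3.67-fold, 1.53 to 8.72), eif4a1b 124 against 37.3 CPM (3.33-fold, 1.90 to 5.80) and eif4a3 105 against 54.1 CPM (1.94-fold, 1.11 to 3.30). The eIF4E complex as a whole was 201 against 69.8 CPM (2.88-fold, 1.89 to 4.35) and 2.28-fold after the cap.

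Of the 15 eIF3 genes tested, 11 were lower and 4 higher in fibroblast-like cells, where 49.6% of all genes were higher. The complex was 3342 against 5354 CPM (0.624-fold, 0.575 to 0.676), and single cells weigh in both sums. In fibroblast-like cells, 1 cell held 235 of the 245 UMIs of eif3c. In endothelial-like cells, 1 cell held 273 of the 333 UMIs of eif3ba, and 1 cell held 218 of the 305 of eif3ha. For eif3f, several endothelial-like cells were rich, with 300, 286 and 224 of its 2156 UMIs there. Its log2 ratio was -1.45 from all UMIs and -0.76 after the cap. In all, 6 of the 15 subunit genes were past 1.5-fold lower by all 3 measures, against 19.2% of all genes. Among them, eif3f was 942 against 2594 CPM (2.75-fold lower, 2.38 to 3.20), eif3g 206 against 517 CPM (2.52-fold lower, 1.84 to 3.53) and eif3m 244 against 476 CPM (1.95-fold lower, 1.46 to 2.67), and eif3d, eif3i and eif3ea completed the set. eif5a (779 against 1681 CPM, 2.16-fold lower, 1.83 to 2.55), eif4bb and eef1db were also lower by all 3 measures. eif4bb had 5 UMIs in 4 fibroblast-like cells, with an interval that reached below 1 (1.76-fold lower, 0.687 to 5.76). Fibroblast markers were 32298 CPM in these cells against 2279.96 in endothelial-like cells, and their part in the member ratios was not tested.

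Paralogs for 1 factor differed in how evenly they shared capped UMIs in endothelial-like cells at day 0. One gene held most in some sets: eif5a 97.6%, eif3ea 97.0%, eef2b 96.0%, eif1b 93.1%, eif3ha 83.9% and eif1axb 79.1%. Others were more even, with eif2s1b at 68.6% of eIF2 alpha (50.7 to 83.1) and eef1da at 59.1% of eEF1B delta (55.3 to 62.8). eif4eb was at 56.5% (34.5 to 76.8) of a narrower set of eIF4E genes that leaves out eif4e2rs1. In the same cells capped eif4e2rs1 stood at 29.5 CPM and eif4eb at 25.5 CPM. For eIF3j, eif3jb was at 40.9% (20.7 to 63.6) at day 0 and 65.9% (49.4 to 79.9) at day 3. Another 34 translation genes were looked up in the table. They took in poly(A)-binding proteins, release factors, mitochondrial factors, eIF4E-binding proteins and eIF2-alpha kinases, so the list mixes factors with regulators. Of these, 13 were tested at day 3 against day 0 in endothelial-like cells, with 5 higher and 8 lower (past 1.5-fold, 2 and 5) and a median of -0.33. At day 7, 14 were tested, with 4 higher and 10 lower (past 1.5-fold, 3 and 6) and a median of -0.52. Over all genes the medians were -0.04 and -0.13, and 47.2% and 41.7% were higher. Past 1.5-fold, 23.5% of all genes were higher and 26.1% lower at day 3, and 16.5% and 25.9% at day 7. In mural-like cells from day 0 to day 7, 8 of 10 were higher, with a median of 0.28, where 48.3% of all genes were higher. Over the 9 comparisons between days and classes the medians of these other genes lay between -0.52 and 0.56.

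The genes whose summed levels tracked eef1a1l1 most closely over the 12 groups were usp36, znf451, eif2a, tmem30aa and c6.1, with Pearson's r from 0.94 to 0.78 among 4788 genes. After the cap the same r lay between -0.10 and 0.36. The groups of 1 day share a library, so these values are descriptions.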

How the data were processed

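Adult zebrafish heart cells were captured on the 10x Chromium and sequenced together, per the labels' protocols. Cell Ranger and the build GRCz10 are named in the submitters' processing notes, while its version and the tool behind the normalized values are not stated there. For 754 cells the authors deposited natural log (ln) values of 26320 genes, together with deposited counts of UMIs and of genes, a mitochondrial percent that is 0 in every cell and was not used, and cluster numbers. Reversing the logarithm and multiplying by the deposited UMI count gave whole numbers, within 0.001, for 497895 of 497895 values above 0, and totals equal to the deposited ones in 754 of 754 cells. These UMI counts were used. The fewest UMIs in a cell were 2004. No doublet caller was run. The labels state 141 recovered cells at day 3 where the files hold 114. No column of other samples was left out.

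Levels are UMIs summed over the cells of a group, scaled to 1000000 (CPM), with exact Poisson intervals. Folds have exact conditional binomial intervals and shares exact Clopper-Pearson intervals, all at 95%. Log2 ratios add 10 CPM and need 20 UMIs over both groups. A member past 1.5-fold was counted, beside the same count over all genes tested. UMIs treat molecules as independent, so intervals leave out variation between cells and fish. Clusters at the resolution of 0.4 were taken as deposited. A cluster's leading genes had to be seen in 25% of its cells. Shares of cells were thinned to 2000 UMIs per cell (seeded); no cell type here is known to lack translation factors, so no background share could be set. Members named with values are the 3 with most UMIs in each complex, the 5 highest and 5 lowest ratios in each comparison as far as the text needs them, and every eEF1A and eEF2 paralog with a UMI. Members past 1.5-fold by all 3 measures were added to these after their values were seen. The members and lists were chosen with earlier results of these data known. Gene names are as deposited, and 69 of 74 members matched a RefSeq zebrafish name table. Sequences at the starts of these genes, planned as a description, were not analysed here. The interval of a ratio was tried on simulated counts drawn from the counting model it assumes, without spread between cells. That checks the code only and cannot show how the interval covers in these data. Python 3.11.15, numpy 2.4.6, pandas 2.3.3, scipy 1.17.1 and matplotlib 3.10.9 were used. Alternatives were another pseudocount, other UMI limits, other totals, means over cells, leaving out the richest cell or deep cells, a 2-fold limit and single clusters. The cap, the comparison of clusters 3 and 6 with 0 and 2, and the medians per cell were chosen after seeing the data.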

Additional observations from a re-analysis of the deposited data

Results flagged for a closer look

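The day 7 against day 0 ratios of eif3ha, eef1a1l1, eif2s1b and eef1b2 had opposite signs in different cell classes, with counting intervals off 1 on both sides and the same signs by all 3 measures. The difference was not tested because each day had 1 library. Other members with opposite signs did not meet both conditions, such as eif3d, at 0.12 in endothelial-like and -1.37 in mural-like cells, or 0.11 and 0.18 without the richest cell. On the log2 scale, eif3ha stood at 2.63 in endothelial-like cells and -1.72 in mural-like cells. eef1a1l1 stood at 0.35 in endothelial-like, 0.74 in cardiomyocyte-like and -0.28 in mural-like cells. eif2s1b stood at 0.93 in endothelial-like and -1.27 in mural-like cells, and eef1b2 at 0.35 and -0.61. Single cells weigh in several of these values: 1 cell held 71.5% of the eif3ha UMIs of day 7 endothelial-like cells and 1 cell held 57.1% of those of day 0 mural-like cells. For eif2s1b the largest such shares were 40.0% and 62.1% in the same groups. Without the richest cell of each group, eif3ha stood at 1.00 in endothelial-like and -0.72 in mural-like cells, and eif2s1b at 0.42 and -0.31. With UMIs per cell capped, eif3ha stood at 0.75 and -0.66, eif2s1b at 0.30 and -0.38, eef1a1l1 at 0.11 and -0.18, and eef1b2 at 0.24 and -0.40. The capped eef1a1l1 ratio in cardiomyocyte-like cells was 0.16.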

How the results depend on the processing

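No paired analysis was possible because each day had 1 library. Of the medians and counts for whole comparisons, 153 values kept their direction and size and 28 moved. Of the values for single genes, 737 kept theirs, 94 moved and 29 reversed. The cause was not tested unless the setting itself gives it (fewer genes, fewer cells). The counts below are members past the limit in either direction, with the reported counts 19 and 15 for endothelial-like cells at day 3 and day 7 against day 0, 17 for mural-like and 6 for cardiomyocyte-like cells at day 7 against day 0, 8 and 10 for mural-like against endothelial-like cells at days 0 and 7, 21 and 21 for cardiomyocyte-like against endothelial-like cells, and 20 for fibroblast-like cells. A 2-fold limit gave 11 and 6 in endothelial-like, 8 in mural-like and 3 in cardiomyocyte-like cells between days, 6 for mural-like and 11 for cardiomyocyte-like against endothelial-like cells at day 7, and 13 for fibroblast-like cells. These counts, and those at other UMI limits, stand without the share of all genes. They show only how the member count moves. The cap, chosen after seeing the data, gave 10 and 7 in endothelial-like and 9 in mural-like cells between days, and 13 for cardiomyocyte-like cells at day 7. A minimum of 100 UMIs gave 6 and 7 in endothelial-like and 10 in mural-like cells between days, 4 for mural-like cells at day 0, 8 and 12 for cardiomyocyte-like cells and 12 for fibroblast-like cells, with medians of 0.092 for day 3 and -0.55 for fibroblast-like cells. With no filter beyond 1 UMI the counts were 26 in mural-like and 31 in cardiomyocyte-like cells between days, 15 and 20 for mural-like and 39 and 33 for cardiomyocyte-like against endothelial-like cells. The day 3 median was -0.084 with cluster 0 alone and 0.12 with cluster 6 alone, and with these clusters eif4h stood at -0.76 (cluster 0) and eif4g1a and eef2b at -0.36 and -0.43 (cluster 6).

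The other reversals appeared without the richest cell of a gene or with the cap, and paired values below are in that order. eif3c stood at 0.21 and 0.18 for day 3, and at 0.31 and 0.16 for day 7 in endothelial-like cells (0.48 with cluster 0 alone), at -0.86 and -0.52 in fibroblast-like cells, and at 0.13 with the cap in day 0 cardiomyocyte-like cells. Between days, eif1axa stood at -0.84 and -0.34 and eif3d at 0.18 and 0.19 in mural-like cells, and eif2s2 at -0.65 and -0.81 in cardiomyocyte-like cells. Against endothelial-like cells, eif3d stood at -0.30 and -0.24 in day 0 mural-like cells, eif1axa at -1.26 and -0.64 and eif3ba at 0.48 and 0.17 in day 7 mural-like cells, eif1b at -0.39 and -0.17 in fibroblast-like cells, and eif4g1a at -1.43 and -0.079 in day 7 cardiomyocyte-like cells. With the cap alone, eif3ha stood at 0.087 in day 7 mural-like cells and eif3ba at 0.035 in day 7 cardiomyocyte-like cells. Other totals moved the median of all genes by over 0.1 only in the cardiomyocyte-like and fibroblast-like comparisons: without mitochondrial, globin and cardiomyocyte marker genes by 0.23 at day 0, 0.15 at day 7 and -0.16 between days, and without ribosomal protein genes by -0.20, -0.24 and, for fibroblast-like cells, -0.15. At day 0 they moved the share of members higher in cardiomyocyte-like cells from 19.4% to 35.5% and 16.1%. Depth limits the low members, since 3 UMIs were 3.50, 6.08 and 2.21 CPM per library.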
